A study of Mus musculus with 2 samples.

Results

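Mir532, Mir188, Mir362, Mir501 and Mir500 are the 5 microRNA (miRNA) genes that lie inside Clcn5 on the mouse X chromosome. They were chosen by name and position, as the rows of the count tables whose Ensembl identifiers the mouse annotation gives to these genes, and they are 5 of 1973 listed miRNA genes. Small RNA of hearts from embryos of strain B6NCrl at embryonic day 16.5 was sequenced in 2 libraries, labelled as biological replicates of a single group. Each library came from a pool of hearts of healthy male and female embryos with no stated treatment or genetic change. Replicate 2 was made from 41 embryos, and the number in replicate 1 was not given in the sources used here. With 1 group there was no contrast of conditions, so the questions were how much of each miRNA the hearts held, in which order, and how far the pools differed.

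An intronic miRNA is cut as a hairpin from the transcript of its host gene by Drosha and then trimmed by Dicer to mature strands, called the 5p and 3p arms, of which either can be loaded into Argonaute. Bases 2 to 8 of the mature strand, the seed, do most of the pairing with target messenger RNAs, so mature strands with the same seed can share targets. The host Clcn5 encodes the endosomal chloride and proton exchanger ClC-5, known from the kidney proximal tubule, where loss of the human gene causes Dent disease. Among the hosted miRNAs, miR-188 has been studied in mouse bone marrow stromal cells and miR-501 in mouse muscle progenitor cells.

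All 5 genes lay on the minus strand, the strand of Clcn5 (ENSMUSG00000004317.14; chrX:7153810-7319358, mm10). Of the 5 annotated Clcn5 transcripts, 3 spanned each gene. In those 3, each gene was intronic, overlapped no exon, and stood in the same intron of 103648 bases. In the direction of transcription the order was Mir532, Mir188, Mir362, Mir501 and Mir500, all within 10815 bases. A gap of 345 bases separated Mir532 from Mir188, 5942 bases separated Mir188 from Mir362, 630 bases Mir362 from Mir501, and 3468 bases Mir501 from Mir500. No other listed miRNA gene lay in Clcn5 or within 50 kb of these 5.

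The hairpins are printed to show how the arms sit in each gene, from 5′ to 3′ as RefSeq gives them for GRCm38.p6 (the build of mm10), with mature strands of the RefSeq table in capitals. All 5 were matched by symbol and had the same coordinates in both annotations. MiR-532-5p was not analysed here, so the 5p arm of Mir532 is left in lower case.
Mir532 (ENSMUSG00000070139.1; chrX:7248402-7248497, minus strand): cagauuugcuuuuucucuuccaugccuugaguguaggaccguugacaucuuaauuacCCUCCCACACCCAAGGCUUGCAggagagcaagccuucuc
Mir188 (ENSMUSG00000065398.1; chrX:7247989-7248056, minus strand): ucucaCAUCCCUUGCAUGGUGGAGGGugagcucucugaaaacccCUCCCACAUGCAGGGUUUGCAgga
Mir362 (ENSMUSG00000070100.1; chrX:7241982-7242046, minus strand): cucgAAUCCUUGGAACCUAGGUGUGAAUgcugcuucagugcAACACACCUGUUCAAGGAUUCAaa
Mir501 (ENSMUSG00000076251.1; chrX:7241243-7241351, minus strand): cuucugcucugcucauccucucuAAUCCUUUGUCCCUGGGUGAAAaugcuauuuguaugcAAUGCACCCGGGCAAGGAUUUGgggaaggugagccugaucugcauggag
Mir500 (ENSMUSG00000070108.2; chrX:7237683-7237774, minus strand): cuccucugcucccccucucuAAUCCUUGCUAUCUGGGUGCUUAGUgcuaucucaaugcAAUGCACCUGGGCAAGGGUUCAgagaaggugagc
The shortest hairpin, Mir362, had 65 bases and the longest, Mir501, had 109 bases.

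The mature strands are printed with the seed in capitals to show which genes share one. Mir532 gives miR-532-5p and miR-532-3p, of which only miR-532-3p is printed.
miR-532-3p: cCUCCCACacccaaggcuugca
miR-188-5p: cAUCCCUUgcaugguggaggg
miR-188-3p: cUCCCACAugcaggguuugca
miR-362-5p: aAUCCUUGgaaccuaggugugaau
miR-362-3p: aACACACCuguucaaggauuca
miR-501-5p: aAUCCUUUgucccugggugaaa
miR-501-3p: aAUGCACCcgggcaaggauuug
miR-500-5p: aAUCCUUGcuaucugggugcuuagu
miR-500-3p: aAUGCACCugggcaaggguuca
MiR-501-3p and miR-500-3p shared the seed AUGCACC, and miR-362-5p and miR-500-5p the seed AUCCUUG. With positions counted from 1 at the 5′ end of miR-501-3p, miR-500-3p differed from it by C9U, A18G, U21C and G22A, all outside the seed. The 3p strands of Mir532 and Mir188 had different seeds but a common run of 8 bases, cucccaca, which starts at the second base of miR-532-3p and the first base of miR-188-3p. Outside Clcn5, the seed of miR-362-3p was also that of miR-329-3p (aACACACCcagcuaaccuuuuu, from Mir329 on chromosome 12), and the seed of miR-188-5p also that of miR-7061-3p. Seeds were compared over all mouse mature strands of the RefSeq table.

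These sequences bear on the counting, since reads that match several places went to no gene, and these were 29.5% of the reads of replicate 1 and 31.9% of replicate 2. None of the 5 hairpins shared a run of 20 bases with another mouse hairpin. The longest run shared within the set was 14 bases, between Mir501 and Mir500. Each of the 9 mature strands matched exactly only its own gene among 141767 annotated transcripts, on either strand. MiR-532-5p was not analysed here, neither in the seed comparison nor in this search. Introns and the rest of the genome outside these transcripts were not searched. Only exact matches were sought, so these searches cannot show how trimmed or mismatched reads of Mir501 and Mir500 were assigned.

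The libraries held 6473482 sense counts at miRNA genes in replicate 1 and 5841568 in replicate 2, where sense means the strand of the gene. Levels are given as CPM, counts per 1000000 of these sense counts, and detected genes are the 365 that reached at least 10 counts in both libraries. The miRNAs of heart muscle (Mir208b, 58261 ± 1172 CPM), smooth muscle (Mir143, the highest gene, 96423 ± 348 CPM) and endothelium (Mir126a, 85049 ± 1170 CPM) were present (mean ± SD, n = 2 here and below). The hepatocyte Mir122 stood at 161 ± 0.97 CPM. Markers of blood were also present, with the erythroid Mir451a at 1511 ± 209 CPM and Mir144 at 368 ± 16.3 CPM, and the leukocyte Mir223 at 402 ± 3.79 CPM. The skeletal muscle Mir206 stood at 174 ± 84.7 CPM, with 742 counts in replicate 1 and 1369 counts in replicate 2. The neuronal miR-124 comes from several genes, whose shared reads went to no gene, so it could not serve as a check.

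All 5 Clcn5-hosted genes were detected in both libraries, and their levels spanned more than a factor of 10. Together they had 41119 sense counts in replicate 1, a share of 0.635% (Wilson 95% interval 0.629% to 0.641%). In replicate 2 they had 38569 sense counts, a share of 0.660% (0.654% to 0.667%). The summed share was 0.648% ± 0.018. Intervals cover counting error only and treat reads as independent. PCR copies are not independent molecules and the sources used here name no molecular identifiers, so the intervals can be too narrow.

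Mir532 was the highest of the set, with 18583 counts (2871 CPM) in replicate 1 and 18813 counts (3221 CPM) in replicate 2, or 3046 ± 247 CPM. It alone held 45.2% and 48.8% of the counts of the 5 genes. Mir188, its neighbour, followed with 12695 counts (1961 CPM) and 11216 counts (1920 CPM), or 1941 ± 29.0 CPM. These genes at the upstream end of the block stood above the other 3 in both libraries.

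Mir501 had 7102 counts (1097 CPM) in replicate 1 and 5567 counts (953 CPM) in replicate 2, or 1025 ± 102 CPM. Mir500, which shares the 3p seed of Mir501, had 1810 counts (279.6 CPM) and 1809 counts (309.7 CPM), or 295 ± 21.3 CPM. The lowest was Mir362, with 929 counts (144 CPM) and 1164 counts (199 CPM), or 171 ± 39.4 CPM. The level therefore did not follow the position, because Mir362 lies between the higher Mir188 and Mir501.

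**Figure D1:**
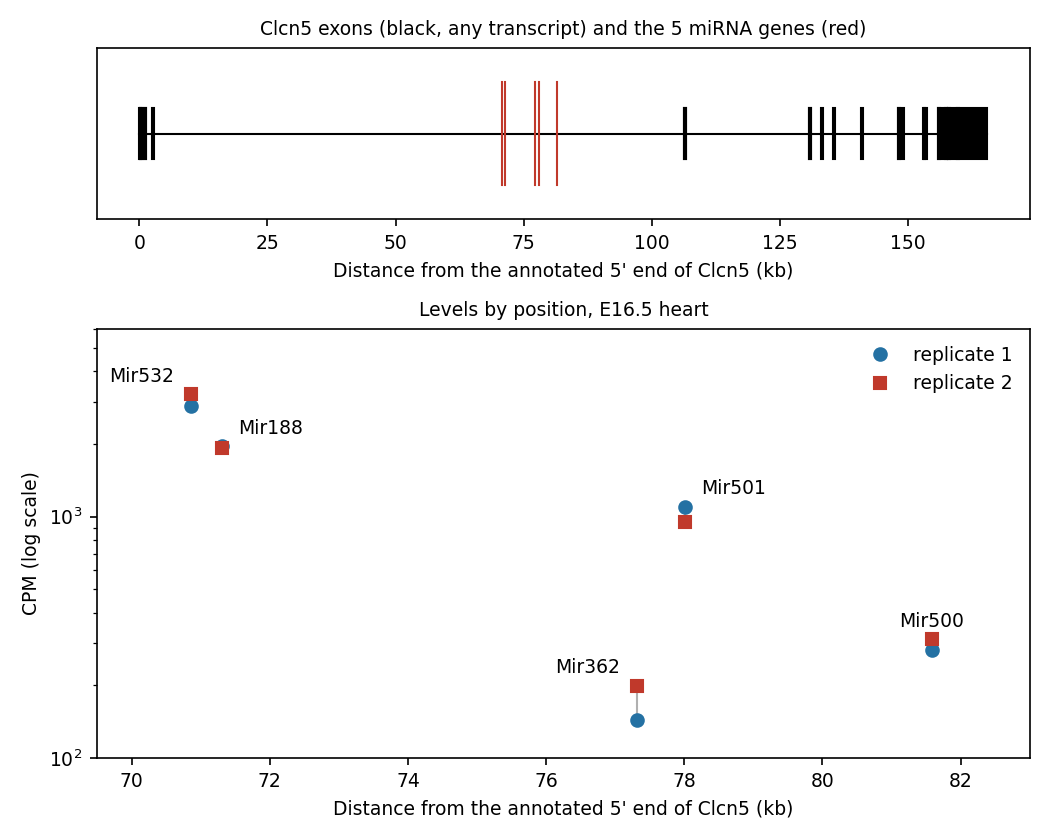
The upper panel draws the exons of Clcn5 and the 5 miRNA genes by distance from the annotated 5′ end of Clcn5 in kb. The lower panel gives the CPM of each miRNA gene (log scale) at its position, with a circle for replicate 1 and a square for replicate 2; Mir532 is highest at 2871 and 3221 CPM and Mir362 lowest at 144 and 199 CPM.

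The order Mir532, Mir188, Mir501, Mir500, Mir362 was the same in both libraries. Mir532 exceeded Mir188 1.46-fold in replicate 1 (exact 95% interval 1.43 to 1.497) and 1.68-fold in replicate 2 (1.64 to 1.72), with a log2 ratio of 0.65 ± 0.14. Mir188 exceeded Mir501 1.79-fold and 2.01-fold, a log2 ratio of 0.92 ± 0.12. The step from Mir501 down to Mir500 was the largest between neighbours in the order, 3.92-fold and 3.08-fold, which is a log2 ratio of 1.80 ± 0.25. Mir500 exceeded Mir362 1.95-fold (1.80 to 2.11) and 1.55-fold (1.44 to 1.67), a log2 ratio of 0.80 ± 0.23.

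Each neighbouring step was thus larger than the spread between the libraries, and from end to end Mir532 exceeded Mir362 20.003-fold in replicate 1 and 16.2-fold in replicate 2. Counts were not divided by hairpin length for these comparisons, because the libraries were limited to short RNA. Per base of hairpin the order was the same, from 29.9 CPM per base in replicate 1 and 33.5 in replicate 2 for Mir532 to 2.21 and 3.07 for Mir362. On that scale Mir188 came closer to Mir532 in replicate 1, at 28.8 CPM per base, than in replicate 2, at 28.2. Equal capture of different miRNAs in the library preparation was not tested.

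By seed, Mir501 and Mir500 together reached 1377 CPM (replicate 1) and 1263 CPM (replicate 2), of which Mir501 made up 79.7% and 75.5%. Mir500 and Mir362, which share the 5p seed, together stood at 423 and 509 CPM, of which Mir500 made up 66.1% and 60.8%. Mir329, whose 3p seed is that of miR-362-3p, had 861 counts (133 CPM) and 804 counts (138 CPM), against 144 and 199 CPM for Mir362. Mir7061 was not analysed here. The tables count reads per gene, so these sums do not separate the 5p from the 3p arm and are not levels of a seed.

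Opposite-strand counts were 0 for each of the 5 genes in both libraries, where a count of 0 allows up to 3 counts. This was the common state, since 333 of 365 detected genes (91.2%) had no opposite-strand count. Among all detected genes Mir532 ranked 38th by mean CPM, Mir188 59th, Mir501 82nd, Mir500 124th and Mir362 152nd. Ranks, medians and shares, here and elsewhere, leave out reads that match several places. A miRNA that comes from several genes can thus stand too low, and the ranks and shares of the 5 genes too high. The median of the 5 was 1025 CPM, beside 108 CPM over all detected genes, and all 5 lay above that median in each library.

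The genes nearest to each member in both libraries were found by the distance between their log2(CPM + 1) values over the 2 libraries. Nearest to Mir532 were Mir107 (3012 ± 303 CPM) and Mir130b (2977 ± 301 CPM), and nearest to Mir188 were Mir92-1 (1944 ± 26.7 CPM) and Mir298 (1858 ± 61.5 CPM). Mir501 lay nearest to Mir1983 (1106 ± 15.4 CPM) and Mir872 (1097 ± 15.7 CPM). Nearest to Mir500 were Mir27a (296 ± 16.5 CPM) and Mir341 (291 ± 2.18 CPM), and nearest to Mir362 were Mir574 (165 ± 39.0 CPM) and Mir190a (146 ± 26.5 CPM). With only 2 libraries this measure describes level, and none of the 10 genes is X-linked.

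The X chromosome held 115 other listed miRNA genes, of which 34 were detected. Their median was 163 CPM, with a range from 2.54 CPM to 72099 CPM. Mir322 (72099 ± 6195 CPM) and Mir351 (25049 ± 3432 CPM), members of another X-linked cluster, were the highest. Among the 39 detected X-linked genes Mir532 ranked 5th, Mir188 9th, Mir501 11th, Mir500 16th and Mir362 22nd. The Clcn5-hosted genes made up 4.57% of X-linked sense counts in replicate 1 and 5.24% in replicate 2, while the other X-linked genes held 13.3% and 11.9% of all sense counts.

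**Figure D2:**
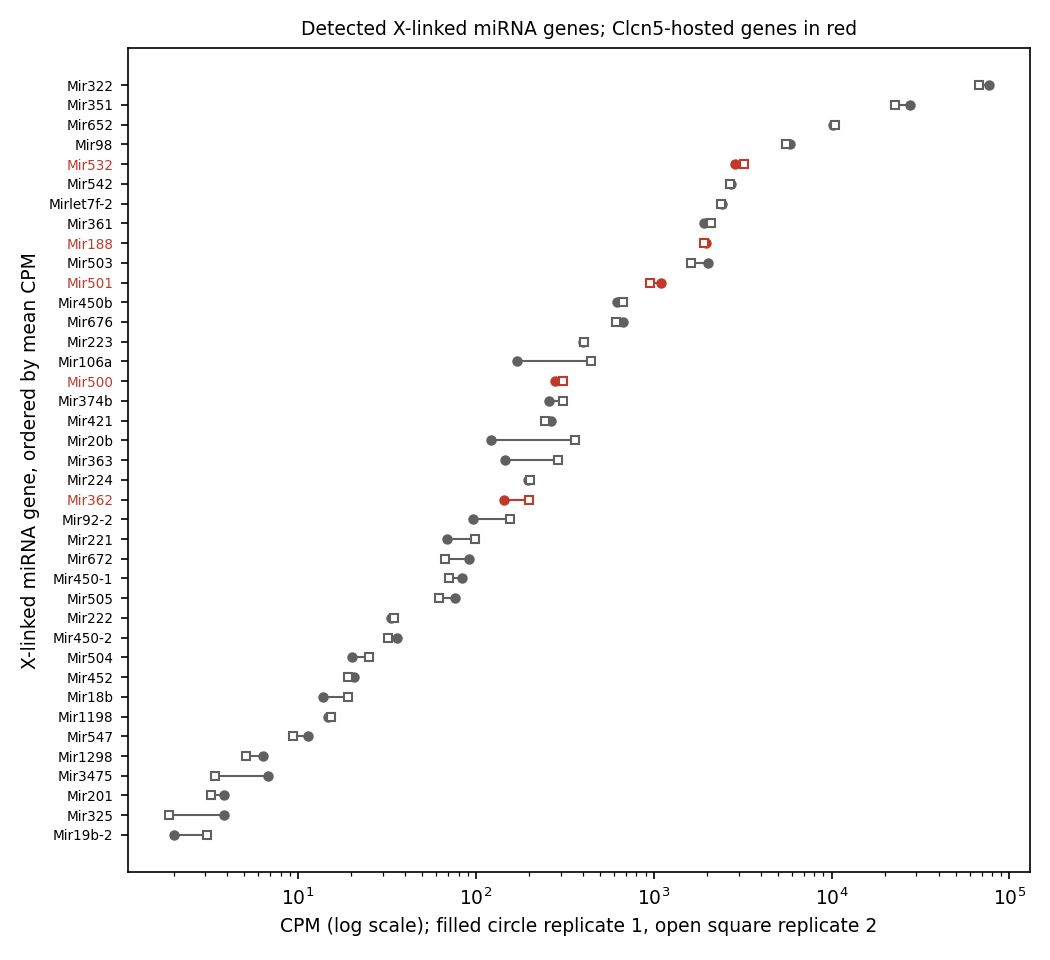
Levels of the 39 detected X-linked miRNA genes in CPM (log scale, horizontal axis), ordered by mean level, with a filled circle for replicate 1 and an open square for replicate 2 joined by a line. The Clcn5-hosted genes are red and range from rank 5 (Mir532) to rank 22 (Mir362).

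The counts of each gene in the pools were then set against TMM-scaled library sizes by an exact binomial test (two-sided), adjusted by the Benjamini-Hochberg method over all 365 detected genes. The test has 1 library on each side, so it compares these libraries by counting error and not conditions. At an adjusted p below 0.05 together with a minimum of 2-fold, 0 of the 5 genes were called, beside 3.29% of all detected genes. With the same test and no minimum fold, 4 of the 5 passed, 3 higher and 1 lower in replicate 2. Over all detected genes 46.3% passed without a minimum fold, 26.0% higher and 20.3% lower in replicate 2. Passing a test of counting error depends on depth. Of the 187 detected genes with a mean of at least 100 CPM, which include all 5, 128 passed, 72 higher and 56 lower in replicate 2.

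Mir362 differed most, going from 144 to 199 CPM, with a log2 ratio of replicate 2 over replicate 1 of 0.50 (1.41-fold; exact binomial test, adjusted p = 1.83e-14). Of the 365 detected genes, 290 had a smaller absolute log2 ratio than Mir362. Those 365 include genes with as few as 10 counts, whose ratios counting error alone spreads more widely. The 290 is therefore not a place among genes of similar level. Mir532 was 1.14-fold higher in replicate 2, a log2 ratio of 0.19 (exact test, adjusted p = 9.89e-37). Mir500 was 1.13-fold higher, a log2 ratio of 0.17 (exact test, adjusted p = 0.000908).

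Mir501 went the other way, from 1097 to 953 CPM, and was 1.13-fold lower in replicate 2 with a log2 ratio of -0.18 (exact test, adjusted p = 2.77e-11). For Mir188 the log2 ratio was -0.0050 (exact test, adjusted p = 0.877), and 7 of the 365 detected genes had a smaller absolute log2 ratio. The median absolute log2 ratio was 0.18 for the 5 genes, 0.21 for all detected genes and 0.14 for the 187 genes with a mean of at least 100 CPM. The signed median was 0.17 for the 5 genes and 0.018 for all detected genes. In these bulk libraries fewer cells of a type and less RNA per cell cannot be told apart.

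**Figure D3:**
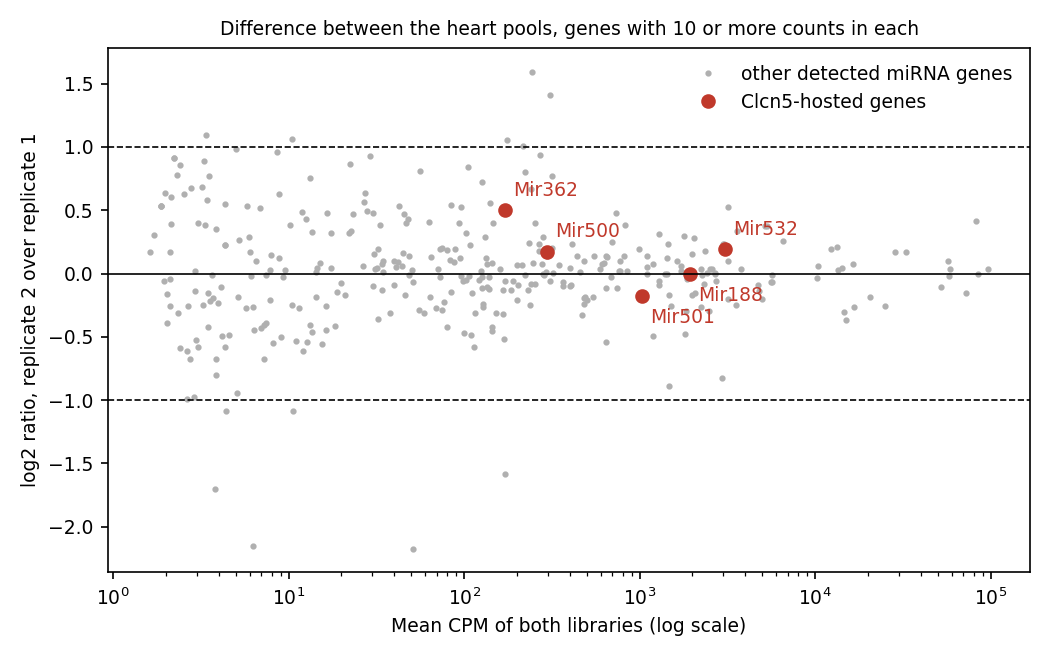
Each point is 1 of the 365 detected miRNA genes, with its mean CPM (log scale) on the horizontal axis and the TMM-scaled log2 ratio of replicate 2 over replicate 1 on the vertical axis; dashed lines mark 2-fold. The Clcn5-hosted genes, in red, all lie inside the 2-fold lines, from -0.18 for Mir501 to 0.50 for Mir362.

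For 9 of the 10 pairs of these genes, the exact 95% intervals of their ratio in replicate 1 and in replicate 2 did not overlap. The 10 ratios come from only 5 genes, and no such count was made for other pairs of detected genes. At these depths small differences pass counting error, as 46.3% of all detected genes did with no minimum fold. That share is per gene and not per pair, so it gives no background for the count. Whether the count is particular to these genes was not tested. Mir501 exceeded Mir362 7.64-fold in replicate 1 (exact 95% interval 7.14 to 8.19) and 4.78-fold in replicate 2 (4.49 to 5.10). These intervals do not overlap, and the hairpins lie 630 bases apart. Mir532 over Mir500 was the exception, at 10.3-fold in replicate 1 (9.78 to 10.8) and 10.4-fold in replicate 2 (9.91 to 10.9), with a log2 ratio of 3.37 ± 0.013. Those genes stand at opposite ends of the block.

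For scale, the 4 pairs of adjacent Clcn5-hosted genes were set beside the 106 other pairs of adjacent detected miRNA genes on the same strand within 10000 bases. In the level of one gene against the next, the Clcn5 pairs ranged from 0.65 (Mir188 and Mir532) to 3.52 (Mir362 and Mir188) in absolute log2 ratio. The other pairs had a median of 3.39, and 44 of the 106 had a smaller gap than the 2.60 of Mir501 and Mir362. In the difference between their log2 ratios of replicate 2 over replicate 1, Mir501 and Mir362 stood 0.68 apart, and 98 of the 106 other pairs stood closer. Mir362 and Mir188 stood 0.50 apart, Mir500 and Mir501 0.35 and Mir188 and Mir532 0.20, beside a median of 0.20 for the other pairs. This comparison has no test, and pairs that share a gene are not independent. Reads that match several places went to no gene, so a miRNA that comes from several genes can widen the level gap of its pair. Pairs with such miRNAs were not set apart, so the median of 3.39 is not a measure of usual level gaps.

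**Figure D4:**
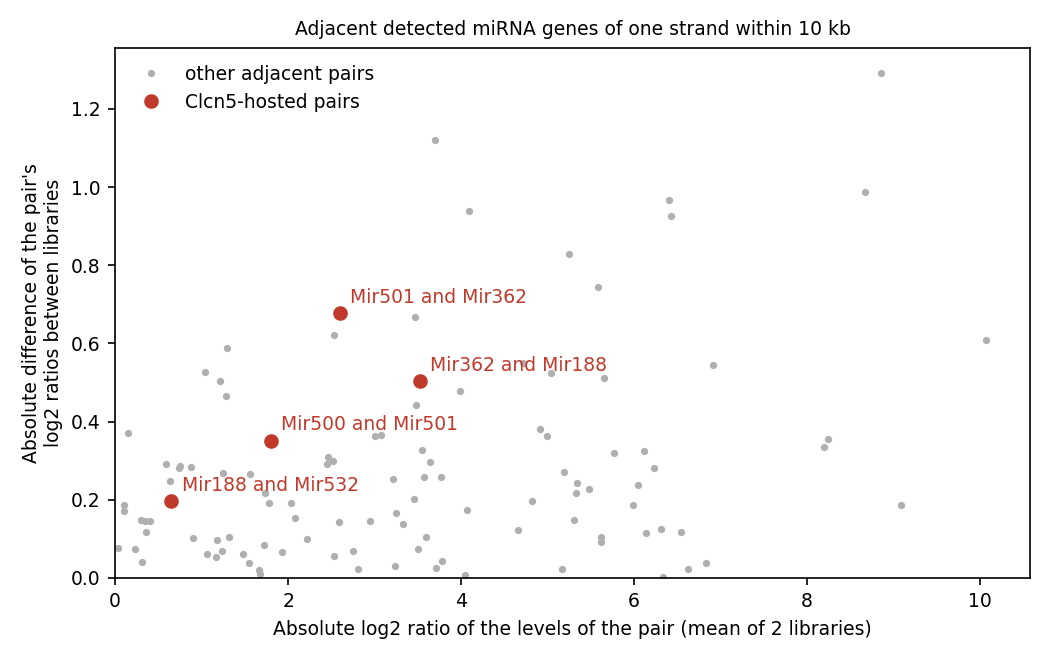
Each point is a pair of adjacent detected miRNA genes of one strand within 10000 bases, by the absolute log2 ratio of their levels (horizontal axis, mean of 2 libraries) and the absolute difference of their log2 ratios between libraries (vertical axis). The 4 Clcn5-hosted pairs, in red, lie between 0.20 and 0.68 on the vertical axis, with Mir501 and Mir362 highest.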

How the data were processed

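The authors deposited a raw read count for every listed miRNA gene on build mm10 with annotation M4, per the file lists of the deposit. The aligner and counter are not given in the sources used here. Column 3 was read as sense because it held the larger gene total of the strand columns in each library. The first 4 lines (unmapped, multiply matching, outside genes, ambiguous) name no gene and stayed out of totals; reads outside the listed genes were 2.99% and 2.66% of reads and unmapped reads 22.4% and 17.2%.

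Identifiers were matched to GENCODE M21 of the same build, which held 1894 of the 1973 listed. CPM was computed from sense totals. TMM factors came from edgeR 4.0.16 (R 4.3.3), and 0.5 was added to each count for log2 ratios. With 1 group, edgeR's quasi-likelihood test had no contrast. Binomial tests and exact Clopper-Pearson intervals used scipy 1.17.1. The test, but not the intervals, was checked on simulated counts scaled by totals. Apart from genes changed on purpose, those counts differed between libraries by counting error only. P-values measure counting error between these libraries only.

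The members, lists and tests were chosen with earlier results of these data known. Named were the members, the 2 genes nearest to each in level, genes sharing a seed, the 2 highest other X-linked genes and tissue markers. The adjacent pairs were chosen after values were seen. Alternatives were other scalings (DESeq2 1.42.0), filters, added counts, denominators, strand columns and leaving out a replicate.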

Additional observations from a re-analysis of the deposited data

How the results depend on the processing

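Each of the 5 genes kept its direction between libraries and its side of the 0.05 threshold under total-count scaling, DESeq2 size factors, 0.1 or 1 added to each count and the either-strand column. With those settings 4 of the 5 passed the exact binomial test without a minimum fold, 3 higher and 1 lower in replicate 2. The log2 ratio of Mir362 ranged from 0.47 with total-count scaling to 0.50. The summed share of 0.648% of sense counts became 0.285% of all reads, 0.717% without the most abundant gene in the total and 0.609% with the either-strand column, by the construction of each denominator. Without each replicate in turn the share ranged from 0.635% to 0.660%. The 12 genes called over all detected genes became 21 with no count filter, 7 with at least 20 counts in each library, 169 with no minimum fold and 29 with a minimum of 1.5-fold, a limit chosen after seeing the data; the members called were 0 with each of these except 4 with no minimum fold. Leaving out a replicate leaves 1 library and no comparison between libraries. No paired analysis was possible because there is a single group. With 929 to 18813 counts each, depth was not the limit for the 5 genes, and 2 libraries limit the estimate of spread.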
